A study of Mus musculus with 16 samples.

Results

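Naïve T cells are kept at rest, and in circulation between blood and lymphoid organs, by a small group of surface receptors and transcription factors. The 9 genes described here were chosen by name as such a group, with earlier results of these data known. They are the homing and egress receptors Ccr7 and S1pr1, and the transcription regulators Klf2, Foxo1, Lef1, Tcf7, Id3, Satb1 and Bach2. They were found by their symbols among the 53090 genes of the deposited tables, and all 9 were present and passed the filter on low counts in every comparison. Their lowest count in any library was 153, for Id3.

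In this circuit FOXO1, while it is in the nucleus, drives the transcription of Klf2, Il7r and Ccr7, and KLF2 in turn drives S1pr1. Signals through the T cell receptor, costimulation and IL-2 activate PI3K and AKT, and AKT phosphorylates FOXO1 so that it leaves the nucleus. LEF1 and TCF-1 (the product of Tcf7) hold the identity of T cells, SATB1 organizes chromatin loops in thymocytes and naïve T cells, ID3 blocks E proteins, and BACH2 represses genes that AP-1 factors switch on.

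The libraries hold mRNA of naïve CD4+ T cells from spleen, called Tn, and of CD4+ T cells kept for 2 days (48 h) under Treg conditions, called Treg. By the paper, the Treg cultures were started from naïve CD4+ T cells. Both came from WT C57BL/6 mice and from Aim2-/- mice on the same background, with 4 libraries in each of the 4 groups. Both genotypes were cultured in the same way, on antibodies to CD3 and CD28 with recombinant human TGF-β and recombinant mouse IL-2. Naïve cells were taken by magnetic selection on surface markers, CD44 low among them. The Aim2-/- mice are deficient in AIM2, a cytosolic DNA sensor, in every cell, and the age of the mice is not given in the sources used here. Because Treg conditions combine activation, growth factors and time in culture, the part each plays cannot be told apart, and in bulk RNA fewer cells of a type and less RNA per cell cannot be told apart either.

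The total count was 22516424 to 34533316 per library. Levels are given as CPM with TMM factors, a share of each library's counts, so that a change in the RNA content of the whole cell would not be seen. Aim2 itself was at 32.0 to 43.7 CPM in the WT libraries and 6.44 to 11.0 CPM in the Aim2-/- libraries, so that its RNA was lowered but not absent. The summed level of 7 T cell markers was 4003 to 4650 CPM in Tn and 2100 to 2235 CPM in Treg libraries. The summed levels of 7 B cell markers (0.378 to 3.15 CPM, with Ms4a1 at 0 in every library), 6 myeloid markers (1.81 to 19.7 CPM) and 2 CD8 T cell markers (2.29 to 12.2 CPM) were low in all groups, as was that of 5 erythroid markers (0.0342 to 5.34 CPM). The summed level of 8 effector, memory and NK cell markers was not as low in Tn, at 44.1 to 74.3 CPM in WT and 36.6 to 117 CPM in Aim2-/- libraries. Library 3 was the highest in both Tn groups, and the part of these markers in the levels of the 9 genes was not tested. Foxp3, which defines Treg cells, was at 1.97 to 3.98 CPM in Tn and at 283 to 574 CPM in Treg libraries. The labelled states were thus found in their defining markers. Libraries 1 and 2 differed from libraries 3 and 4 in some groups, and most in WT Tn. In WT Tn, 8.70% of 13441 genes lay at least 2-fold apart between these pairs, against 2.47% in Aim2-/- Tn. Between the same pairs it was 2.74% of 13221 genes in WT Treg and 6.23% in Aim2-/- Treg, and the labels name no batch. The labels do not say that libraries of a group came from separate mice, so p-values measure the spread between these libraries.

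All 9 are protein-coding genes, and each count covers the exons of the gene. On GRCm38 the receptor genes lie at chr11:99144196-99155077 (Ccr7, minus strand) and chr3:115710433-115715072 (S1pr1, minus strand). The genes of the factors lie at chr8:72319033-72321656 (Klf2, plus strand), chr3:52268336-52353221 (Foxo1, plus), chr3:131110471-131224356 (Lef1, plus), chr11:52252371-52283014 (Tcf7, minus), chr4:136143497-136145755 (Id3, plus), chr17:51736187-51833290 (Satb1, minus) and chr4:32238804-32586108 (Bach2, plus). Reads shared with other genes gave counts that were not whole in 16 libraries for Lef1 and Bach2, in 14 for Satb1 and in 1 for Foxo1. Genes annotated inside or antisense to Lef1, Tcf7, Foxo1, Satb1 and Bach2 had at most 259 counts in any library.

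Promoter sequences, from 250 bases before to 50 bases after a start site, were taken from RefSeq on GRCm38.p6, which gave 15 start sites for 7 of the 9 genes. Of the letters searched on both strands, TGTTTAC (forkhead) occurs in 3.65% of all 32851 promoters, CTTTGAA and CTTTGAT (TCF/LEF) in 5.14% and 3.73%, CCACACCC (KLF) in 3.56% and TGANTCA (AP-1) in 7.81%. The second start site of Tcf7 held TGTTTAC and CCACACCC, both on the strand opposite to the gene, at positions 2 and -69 from the start, and the other 14 member promoters held none of the 5. Shown are 3 promoters: that one because it holds the matches, that of Klf2, the member with the largest difference between genotypes in Tn cells relative to its error, and that of Bach2, the member whose level did not pass the test with culture. Capitals mark the matched letters as they read on the gene's strand.
Tcf7, second start site, chr11:52282546-52282845, minus strand: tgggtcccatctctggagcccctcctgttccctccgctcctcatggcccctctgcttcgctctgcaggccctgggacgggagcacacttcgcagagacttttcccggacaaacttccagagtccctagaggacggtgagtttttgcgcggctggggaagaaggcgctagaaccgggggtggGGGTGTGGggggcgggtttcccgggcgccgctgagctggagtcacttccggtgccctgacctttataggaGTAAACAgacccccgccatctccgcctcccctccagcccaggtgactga
Klf2, chr8:72318812-72319111, plus strand: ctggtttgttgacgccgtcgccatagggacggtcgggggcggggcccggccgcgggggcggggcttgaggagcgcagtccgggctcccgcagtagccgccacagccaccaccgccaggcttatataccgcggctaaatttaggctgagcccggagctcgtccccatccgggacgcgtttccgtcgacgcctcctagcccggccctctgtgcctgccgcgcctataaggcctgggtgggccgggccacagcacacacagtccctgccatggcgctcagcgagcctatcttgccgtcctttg
Bach2, chr4:32417185-32417484, plus strand: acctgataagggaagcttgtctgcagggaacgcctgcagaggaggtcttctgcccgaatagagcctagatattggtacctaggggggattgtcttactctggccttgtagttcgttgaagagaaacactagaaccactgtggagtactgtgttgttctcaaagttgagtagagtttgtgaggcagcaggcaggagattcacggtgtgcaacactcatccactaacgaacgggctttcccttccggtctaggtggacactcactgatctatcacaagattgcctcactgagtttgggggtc
The Bach2 start site shown lies inside the gene as GENCODE annotates it and is the only one of Bach2 in the set used. The Klf2 promoter was 69.3% G and C with 32 CpG dinucleotides, and the Bach2 promoter 50.3% with 7, against medians of 52.7% and 7 over all promoters. The first start site of Tcf7 was at 76.3% with 45 CpG dinucleotides.

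After 2 days in Treg conditions, 8 of the 9 genes were lower than in naïve cells and none was higher, in WT and in Aim2-/- cells alike. The egress receptor S1pr1 fell furthest, about 21.2-fold in WT and 30.2-fold in Aim2-/- cells. Satb1 and Klf2 came next, at 12.4-fold and 12.2-fold in WT and 13.1-fold and 19.3-fold in Aim2-/- cells. Tcf7, Lef1 and Ccr7 fell 3.00-fold to 5.48-fold and Foxo1 and Id3 1.86-fold to 2.18-fold. Bach2 was the exception and did not pass the test in either genotype. Calls rest on the quasi-likelihood test of edgeR, adjusted after Benjamini and Hochberg over all genes tested, at a threshold of 0.05. Of 13675 genes, 39.2% were called lower and 37.7% higher in WT cells, and of 13713 genes 40.2% and 39.1% in Aim2-/- cells, so that culture moved much of the transcriptome. The median log2 fold change of the 9 genes was -1.90 in WT and -1.98 in Aim2-/- cells, against -0.05 and -0.04 over all genes tested. The 7 T cell markers were also all called lower in both genotypes, with medians of -1.24 in WT and -1.14 in Aim2-/- cells. Foxo1 and Id3 fell less than these marker medians in both genotypes. The groups did not overlap, with Treg lower, for 7 of the 9 genes in WT (35% of all genes tested) and for 8 in Aim2-/- cells (36.3%).

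**Figure D1:**
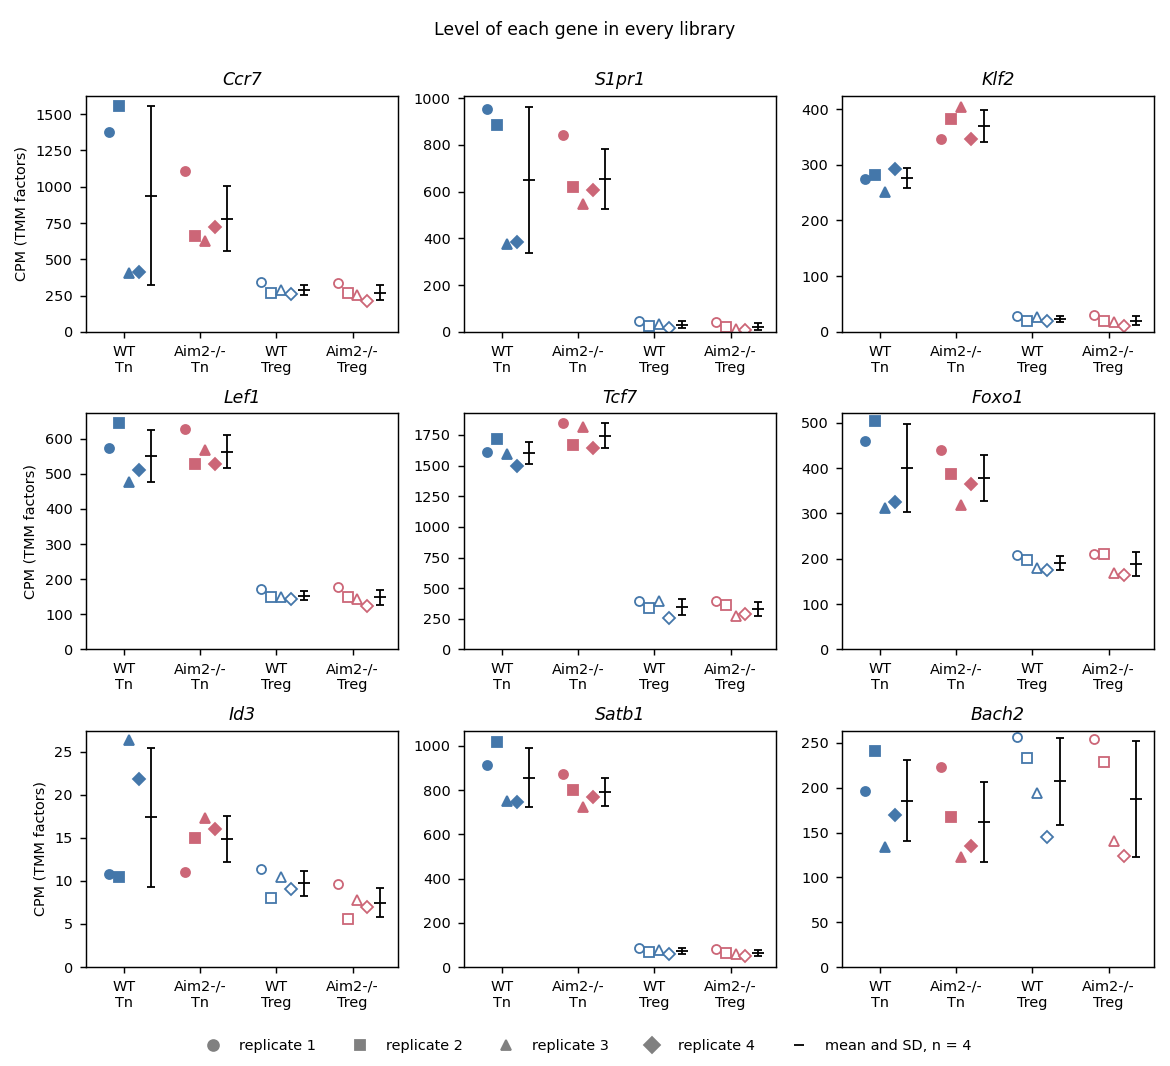
Level of each of the 9 genes in CPM (vertical axis, linear, from 0) in the 4 libraries of each group (horizontal axis), with the marker shape giving the replicate number and the bar the mean and SD of 4 libraries. In WT Tn cells Ccr7 was at 1378 and 1559 CPM in libraries 1 and 2 and near 410 CPM in libraries 3 and 4, and Bach2 is the panel in which a Treg library is the highest of its genotype in both WT and Aim2-/- cells.

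Of the receptors, CCR7 binds the chemokines CCL19 and CCL21 and brings T cells into lymph nodes. Ccr7 was at 1378, 1559, 408 and 414 CPM in the WT Tn libraries 1 to 4 and at 1108, 664, 627 and 720.3 CPM in Aim2-/- Tn. After culture it was at 342, 267, 288 and 259 CPM in WT and at 338, 269.7, 254 and 216 CPM in Aim2-/- cells. Every Treg library was below every Tn library of its genotype, but the WT Tn libraries fell into a high pair and a low pair. The log2 fold change with culture was -1.75 (SE 0.45, edgeR adjusted p = 0.0058) in WT and -1.59 (SE 0.19, edgeR adjusted p = 2.4e-05) in Aim2-/- cells. Within WT libraries 1 and 2 alone (2 against 2) it was -2.27, and within libraries 3 and 4 alone -0.66, both with the call kept. Per kb of exon, Ccr7 had the second highest level of the 9 genes in Tn and the highest in Treg cells.

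S1PR1 senses sphingosine 1-phosphate and lets T cells leave lymphoid organs. S1pr1 was at 952, 886, 376 and 386 CPM in WT Tn and at 840.4, 618, 545 and 607 CPM in Aim2-/- Tn. The Treg libraries held 48.6, 26.5, 35.4 and 16.7 CPM in WT, against 43.1, 23.03, 13.7 and 9.89 CPM in Aim2-/- cells. No Treg library came near a Tn library, and the spread between Treg libraries was wide, with the highest 2.91 times the lowest in WT and 4.36 times in Aim2-/- cells. The log2 fold change was -4.41 (SE 0.46, edgeR adjusted p = 2.1e-05) in WT and -4.91 (SE 0.43, edgeR adjusted p = 1.9e-06) in Aim2-/- cells. Of all genes tested, 1.69% in WT and 1.57% in Aim2-/- cells had a lower log2 fold change than S1pr1.

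KLF2, a zinc finger factor, is induced as thymocytes mature and is lost when T cells are activated. Klf2 was at 275, 282, 251 and 293 CPM in WT Tn and at 346, 383, 404 and 346 CPM in Aim2-/- Tn. In Treg libraries it was at 29.1, 19.6, 26.1 and 18.98 CPM in WT, against 29.99, 20.3, 18.7 and 10.3 CPM in Aim2-/- cells. Treg libraries lay far below Tn libraries in both genotypes, and in Tn every Aim2-/- library lay above every WT library. With culture the log2 fold change was -3.61 (SE 0.15, edgeR adjusted p = 2.6e-08) in WT and -4.27 (SE 0.27, edgeR adjusted p = 1.5e-07) in Aim2-/- cells. FOXO1 itself, a forkhead factor, changed less. Foxo1 was at 460.4, 503, 312 and 325 CPM in WT Tn, 441, 388, 318 and 365 CPM in Aim2-/- Tn, 208, 198, 179 and 176 CPM in WT Treg and 211, 209.8, 168 and 164 CPM in Aim2-/- Treg cells. The states did not overlap, and the log2 fold change was -1.13 (SE 0.16, edgeR adjusted p = 0.00011) in WT and -1.06 (SE 0.12, edgeR adjusted p = 8.5e-06) in Aim2-/- cells. RNA levels do not show where in the cell FOXO1 protein is.

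LEF1 and TCF-1 are HMG box factors that bind the same DNA letters and work with β-catenin or with TLE corepressors. Lef1 was at 572, 645, 475 and 510.3 CPM in WT Tn, 628, 529, 567 and 527 CPM in Aim2-/- Tn, 171, 149, 150.0 and 142 CPM in WT Treg and 177, 149, 142 and 123 CPM in Aim2-/- Treg cells. Tcf7 was at 1608, 1714, 1594 and 1495 CPM in WT Tn, 1846, 1667, 1816 and 1647 CPM in Aim2-/- Tn, 395, 339, 398 and 260.0 CPM in WT Treg and 395, 364, 271 and 293 CPM in Aim2-/- Treg cells. For both genes the states lay well apart and the genotypes overlapped within each state. The log2 fold change of Lef1 was -1.90 (SE 0.11, edgeR adjusted p = 1.7e-07) in WT and -1.98 (SE 0.12, edgeR adjusted p = 2.9e-08) in Aim2-/- cells. That of Tcf7 was -2.26 (SE 0.13, edgeR adjusted p = 2.2e-07) in WT and -2.45 (SE 0.13, edgeR adjusted p = 1.1e-08) in Aim2-/- cells. Lef1 and Tcf7 were the pair of members with the most alike profiles, at a root mean square distance of 0.26 between their centred log2 CPM values over the 16 libraries, and Satb1 and Klf2 came next at 0.32.

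SATB1 binds AT-rich DNA and anchors chromatin loops. Satb1 was at 911, 1019, 752 and 746 CPM in WT Tn and 873, 799, 725 and 771 CPM in Aim2-/- Tn, and at 85.2, 66.3, 78.8 and 57.6 CPM in WT Treg and 80.01, 62.4, 59.1 and 49.03 CPM in Aim2-/- Treg cells. The Treg libraries were all far below the Tn libraries. Its log2 fold change was -3.63 (SE 0.16, edgeR adjusted p = 3.3e-08) in WT and -3.71 (SE 0.15, edgeR adjusted p = 1.4e-09) in Aim2-/- cells. ID3 lacks a DNA-binding domain and pairs with E proteins so that they cannot bind DNA. Id3 was the least abundant member in Tn, at 10.8, 10.4, 26.4 and 21.9 CPM in WT, against 11.04, 14.97, 17.2 and 15.99 CPM in Aim2-/- cells, and was at 11.3, 8.02, 10.4 and 9.06 CPM in WT Treg and 9.62, 5.57, 7.73 and 6.98 CPM in Aim2-/- Treg cells. WT Tn libraries 1 and 2 lay within the range of WT Treg libraries, and libraries 3 and 4 lay above it. The log2 fold change of Id3 was -0.89 (SE 0.30, edgeR adjusted p = 0.022) in WT and -1.04 (SE 0.19, edgeR adjusted p = 0.00032) in Aim2-/- cells. In WT this call was lost within libraries 1 and 2 (log2 fold change -0.14, edgeR adjusted p = 0.45). It was also lost without the WT Tn library 3 (-0.63, 0.061) or 4 (-0.78, 0.061) and without the WT Treg library 2 (-0.77, 0.074) or 4 (-0.81, 0.067), where the second value is the edgeR adjusted p.

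BACH2, a bZIP repressor that pairs with small MAF proteins, holds back effector programmes in T cells. Bach2 was at 197, 242, 134 and 170.1 CPM in WT Tn and 223, 167, 123 and 135 CPM in Aim2-/- Tn, and at 256, 233, 194 and 145 CPM in WT Treg and 255, 229, 141 and 124 CPM in Aim2-/- Treg cells. The states overlapped in both genotypes. The log2 fold change was 0.11 (95% interval -0.37 to 0.58, edgeR adjusted p = 0.66) in WT and 0.16 (-0.40 to 0.72, edgeR adjusted p = 0.58) in Aim2-/- cells, which leaves room for a rise or fall of these sizes. Its sign turned with a correction for GC content and length, to -0.02 and -0.04.

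**Figure D2:**
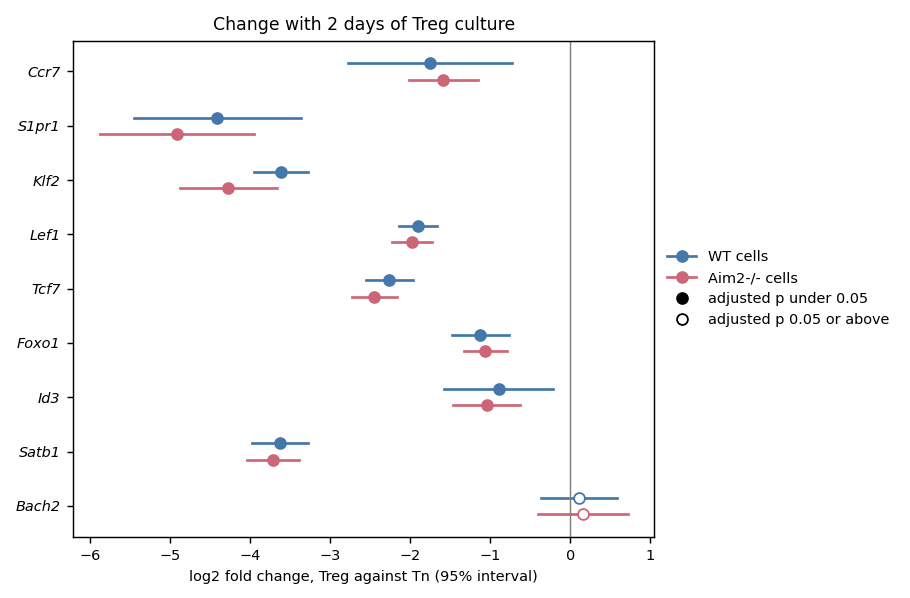
Change of each of the 9 genes with 2 days of Treg culture, as log2 fold change of Treg against Tn cells (horizontal axis) with its 95% interval (lines), in WT and in Aim2-/- cells, 4 against 4 libraries each. Filled points have an edgeR adjusted p under 0.05, and Bach2, at 0.11 and 0.16, is the open pair beside 0.

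Levels can be compared between genes only per length, here as CPM per kb of exon. The length was that of all annotated exons of a gene merged, which can exceed that of the transcript expressed. It was 19027 bases for Satb1 and 1791 for Id3, so the places of such genes rest on it. In CPM alone, Satb1 (72.0) was above Id3 (9.70) in WT Treg. In Tn cells of both genotypes the order of these levels was Tcf7, Ccr7, S1pr1, Klf2, Lef1, Foxo1, Satb1, Bach2 and Id3, from 611 ± 34.2 CPM per kb (SD, n = 4) for Tcf7 to 9.69 ± 4.48 for Id3 in WT. In WT Tn the neighbours Klf2 and Lef1, and Satb1 and Bach2, were apart by more than their ranges, and all other neighbours overlapped. After culture the order in both genotypes was Ccr7, Tcf7, Foxo1, Bach2, Lef1, Klf2, S1pr1, Id3 and Satb1. Ccr7 (146 ± 19.0 CPM per kb in WT Treg) and Tcf7 (133 ± 24.5) overlapped each other and stood above all the others, of which Foxo1 was the next at 21.96 ± 1.78. Satb1 moved from 45.0 ± 6.97 CPM per kb, the seventh place, to 3.78 ± 0.65, the last, and Bach2 from the eighth place to the fourth at nearly the same level, 18.7 ± 4.55 and 20.8 ± 4.89.

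**Figure D3:**
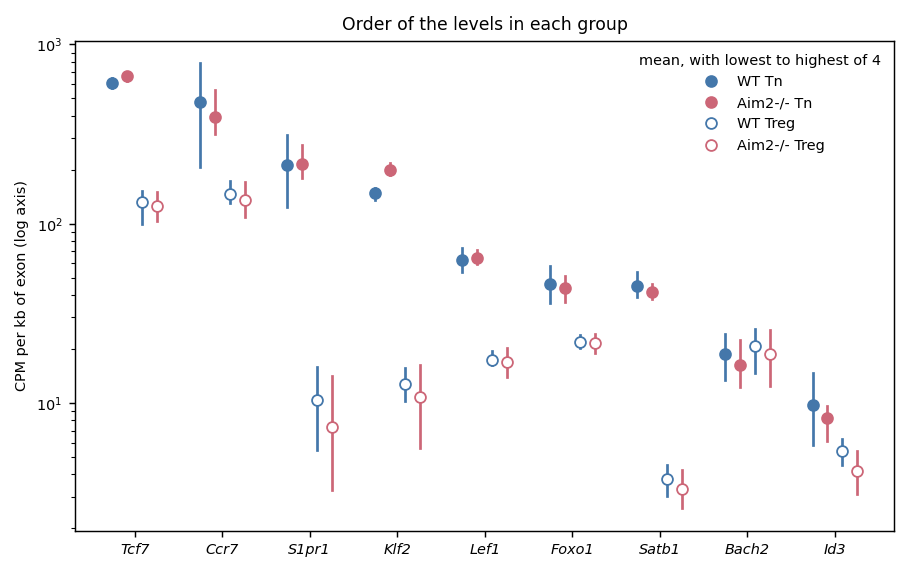
Level of each gene per kb of exon (vertical axis, CPM per kb, log axis) in the 4 groups, as the mean of 4 libraries (points) with the lowest and highest library (lines), genes in the order of the WT Tn means. S1pr1, Klf2 and Satb1 show the widest distance between filled points (Tn) and open points (Treg), and the points of Bach2 lie close together at 16.3 to 20.8 CPM per kb.

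The genes whose profile over the 16 libraries was most like that of each member were found among 9650 genes by the same root mean square distance. They were Rnf19a and Il4ra for Ccr7 (0.17 and 0.18), Gpr183 and Ttc28 for S1pr1 (0.32 and 0.34), and Jakmip1 and Acp5 for Klf2 (0.20 and 0.22). For Lef1 they were Nedd4l and Maf1 (0.093 and 0.095), for Tcf7 Pdk1 and Rgmb (0.11 and 0.13), for Foxo1 Slu7 (0.089) and for Satb1 Btg2 and Dirc2 (0.11 and 0.14). For Id3 they were Akr1c13 and B4galt7 (0.22 and 0.23) and for Bach2 Zswim4 and Tshz1 (0.19 and 0.19). Of these genes, Gpr183, a receptor for oxysterols that guides cells within lymphoid tissue, and Btg2, which restrains proliferation, also stood in the lists of pathway genes described next.

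Other genes of the same pathways were counted by list, and these lists too were chosen with earlier results of these data known. Beside these counts, 39.2% of all genes tested were called lower and 37.7% higher in WT cells, and 40.2% and 39.1% in Aim2-/- cells. For sphingosine 1-phosphate genes, E and ID proteins, and genes upstream of FOXO1, the WT counts were near or below these shares. Their median log2 fold changes in WT were -0.36, 0.10 and 0.07, so their counts are not read as a shift of the list. Of 13 homing partners, 9 fell and none rose with culture in WT cells, and 10 fell and 1 rose in Aim2-/- cells. Cxcr4, the receptor of CXCL12, was at 297, 288, 153 and 159.8 CPM in WT Tn and 7.25, 4.52, 5.78 and 2.63 CPM in WT Treg cells, with log2 fold changes of -5.52 (SE 0.38, edgeR adjusted p = 9.6e-07) in WT and -6.02 (SE 0.33, edgeR adjusted p = 5e-08) in Aim2-/- cells. Gpr183 went from 263, 247, 118 and 139.9 CPM to 10.5, 6.81, 6.51 and 3.76 CPM in WT cells, with log2 fold changes of -4.85 (SE 0.39, edgeR adjusted p = 2.8e-06) and -5.29 (SE 0.37, edgeR adjusted p = 2.8e-07). Cd69, whose product binds S1PR1 and takes it off the surface, was picked from this list after its values were seen. It went from 289.7, 300.5, 211 and 252 CPM in WT Tn to 47.05, 48.6, 52.2 and 62.2 CPM in WT Treg cells and fell by 2.38 (SE 0.13, edgeR adjusted p = 1.6e-07) on the log2 scale, so that the RNA of S1pr1 and of its antagonist were both lower after 2 days.

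Among 8 tested genes of sphingosine 1-phosphate metabolism and its other receptors, 2 rose and 2 fell in WT cells, and 2 rose and 3 fell in Aim2-/- cells. Sphk1, a kinase that makes the lipid, had no count in any WT Tn library and 3.15, 2.64, 4.23 and 0.865 CPM in WT Treg libraries, at least 24.3-fold higher against a floor of 3 counts per library. S1pr3, another receptor of the lipid, had no count in any Tn library of either genotype and 1.54, 1.82, 2.19 and 0.489 CPM in WT Treg cells, at least 13.5-fold higher in WT and 11.6-fold higher in Aim2-/- cells by the same floor. Grk2, a kinase that desensitizes such receptors, and Sgpl1, the lyase that breaks the lipid down, were the genes of this list that fell in WT. Grk2 fell by 0.85 (SE 0.06, edgeR adjusted p = 6.8e-07) and Sgpl1 by 0.60 (SE 0.08, edgeR adjusted p = 9.2e-05) on the log2 scale.

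Of 26 other quiescence factors, 23 fell and none rose in either genotype, with median log2 fold changes of -1.78 in WT and -1.81 in Aim2-/- cells. Il7r, the receptor for the survival cytokine IL-7 and a target of FOXO1, was at 527, 472, 517 and 500.1 CPM in WT Tn and 6.87, 7.04, 6.97 and 11.9 CPM in WT Treg cells, with log2 fold changes of -6.00 (SE 0.20, edgeR adjusted p = 6.5e-09) and -5.71 (SE 0.13, edgeR adjusted p = 2.5e-11). Tsc22d3, which encodes the glucocorticoid-induced leucine zipper protein, went from 462, 404, 440.0 and 419.7 CPM to 12.7, 9.82, 10.5 and 8.91 CPM, with log2 fold changes of -5.42 (SE 0.13, edgeR adjusted p = 9.4e-10) and -5.83 (SE 0.17, edgeR adjusted p = 1.1e-10). The 3 factors that did not pass the test were Foxp1, Runx1 and Gfi1, named after their values were seen, at log2 fold changes of -0.26, -0.24 and -0.26 in WT.

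Of 10 tested relatives and cofactors of the TCF/LEF factors, 8 fell and 1 rose in each genotype. Axin2, a target of β-catenin with TCF/LEF factors, had log2 fold changes of -3.54 (SE 0.14, edgeR adjusted p = 1.9e-08) in WT and -3.35 (SE 0.11, edgeR adjusted p = 2.7e-10) in Aim2-/- cells, and the corepressor Tle4 had -2.13 (SE 0.20, edgeR adjusted p = 7.7e-06) and -1.90 (SE 0.18, edgeR adjusted p = 2.2e-06). The gene that rose was Ctnnb1, which encodes β-catenin, by 1.32 (SE 0.14, edgeR adjusted p = 1.3e-05) and 1.60 (SE 0.08, edgeR adjusted p = 6.5e-09). Of 5 tested E protein and other ID protein genes, 2 rose and 2 fell in WT, and 2 rose and 1 fell in Aim2-/- cells. Id2 went from 89.4, 77.9, 79.4 and 78.2 CPM to 16.4, 11.6, 16.6 and 11.3 CPM in WT cells, a log2 fold change of -2.59 (SE 0.15, edgeR adjusted p = 1.8e-07), while Id1 went from 1.14, 1.26, 0.8797 and 0.741 CPM to 10.9, 8.72, 10.2 and 2.895 CPM, a log2 fold change of 2.97 (SE 0.41, edgeR adjusted p = 9.3e-05). In Aim2-/- cells the log2 fold changes were -2.74 (SE 0.18, edgeR adjusted p = 1e-07) for Id2 and 1.39 (SE 0.33, edgeR adjusted p = 0.0024) for Id1. Tcf4 rose by 0.62 (edgeR adjusted p = 0.007) in WT. Tcf12 fell by 0.26 (edgeR adjusted p = 0.038) in WT and was at -0.02 (edgeR adjusted p = 0.87) in Aim2-/- cells.

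Of 10 partners and rivals of BACH2, 9 fell and 1 rose in each genotype, although Bach2 did not pass the test. The AP-1 genes Junb and Jun had log2 fold changes of -3.96 (SE 0.11, edgeR adjusted p = 2.9e-09) and -3.65 (SE 0.24, edgeR adjusted p = 6e-07) in WT, with Junb at 2192, 2818, 2075 and 2560.0 CPM in WT Tn and 154, 177, 152 and 162 CPM in WT Treg cells. Mafg, a small MAF partner, rose by 1.33 (SE 0.36, edgeR adjusted p = 0.0073) in WT and by 1.42 (SE 0.16, edgeR adjusted p = 1.2e-05) in Aim2-/- cells. Of 10 genes that act upstream of FOXO1 or carry it out of the nucleus, 3 rose and 2 fell in WT, and 6 rose and 2 fell in Aim2-/- cells. Pik3cd, a catalytic subunit of PI3K, fell by 1.48 (SE 0.08, edgeR adjusted p = 1.4e-07) on the log2 scale in WT. Akt1 and the exportin gene Xpo1 rose by 1.23 (SE 0.07, edgeR adjusted p = 2.3e-07) and 1.27 (SE 0.11, edgeR adjusted p = 3.7e-06). As a check of the culture, all 8 activation and Treg genes rose in both genotypes, with Il2ra at 2.65 to 4.11 CPM in WT Tn and 1398 to 1513 CPM in WT Treg cells and Ccnb1 at log2 fold changes of 8.25 and 8.70.

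**Figure D4:**
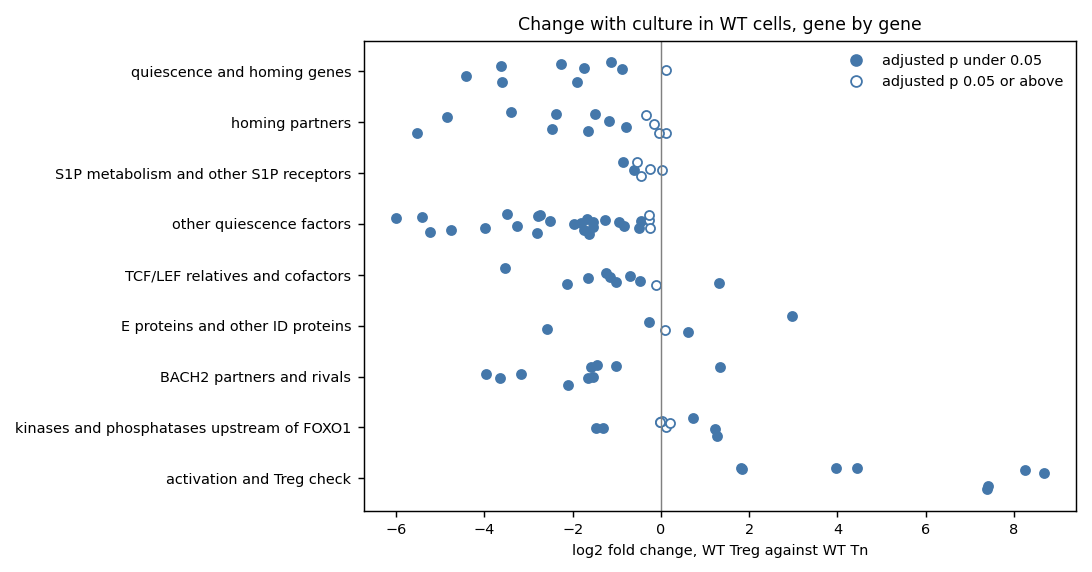
Log2 fold change of WT Treg against WT Tn cells (horizontal axis) for each tested gene of the 9 genes and of the 8 other lists (rows, with points spread vertically at random), filled where the edgeR adjusted p was under 0.05. Sphk1 and S1pr3, which had no count in WT Tn cells, are left out, and 23 of the 26 other quiescence factors are filled points to the left of 0. Of all genes tested, 39.2% were called lower in WT cells.

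Between genotypes, none of the 9 genes passed the test in either state. In Tn cells 0.231% of 13441 genes were called by edgeR and in Treg cells 0.219% of 13221, and of the 9 genes 1 (Klf2) in Tn and 0 in Treg cells had an unadjusted p under 0.05, against 10.3% and 2.31% of all genes. DESeq2 called 1 member in Tn cells, Klf2. The median log2 fold change of the 9 genes was -0.06 in Tn and -0.15 in Treg cells, against 0.01 and 0.00 over all genes tested. None of the genes in the 8 other lists was called in either state or in the interaction. The smallest p over these lists was that of Axin2 in Tn (log2 fold change -0.33, edgeR adjusted p = 0.29), of Mki67 in Treg (-0.15, edgeR adjusted p = 1) and of Id1 in the interaction (-1.60, edgeR adjusted p = 1).

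Klf2 was higher in each of the 4 Aim2-/- Tn libraries (346 to 404 CPM) than in any WT Tn library (251 to 293 CPM), as was true of 3% of all genes tested, and no other member had groups that did not overlap. The difference was 1.36-fold, a log2 fold change of 0.45 (SE 0.09, 95% interval 0.25 to 0.64), with an unadjusted p of 0.00042 from the edgeR fit and an edgeR adjusted p of 0.13. DESeq2 gave an adjusted p of 0.0017, and the adjusted p was 0.064 to 0.43 over all other settings (edgeR or limma-voom) and left-out libraries. With a correction for GC content and length the log2 fold change was 0.27. It was 0.41 within libraries 1 and 2 and 0.47 within libraries 3 and 4. Low levels of other cells' markers moved with this difference: the summed B cell markers were at 1.54 to 2.14 CPM in WT Tn, below the 2.43 to 3.15 CPM in Aim2-/- Tn. The summed erythroid markers were at 0.670 to 2.72 CPM, below 3.62 to 5.34 CPM, and the part of either in the level of Klf2 was not tested. S1pr1, which KLF2 is known to drive, did not pass the test in Tn cells, with a log2 fold change of 0.03 (95% interval -0.73 to 0.79).

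**Figure D5:**
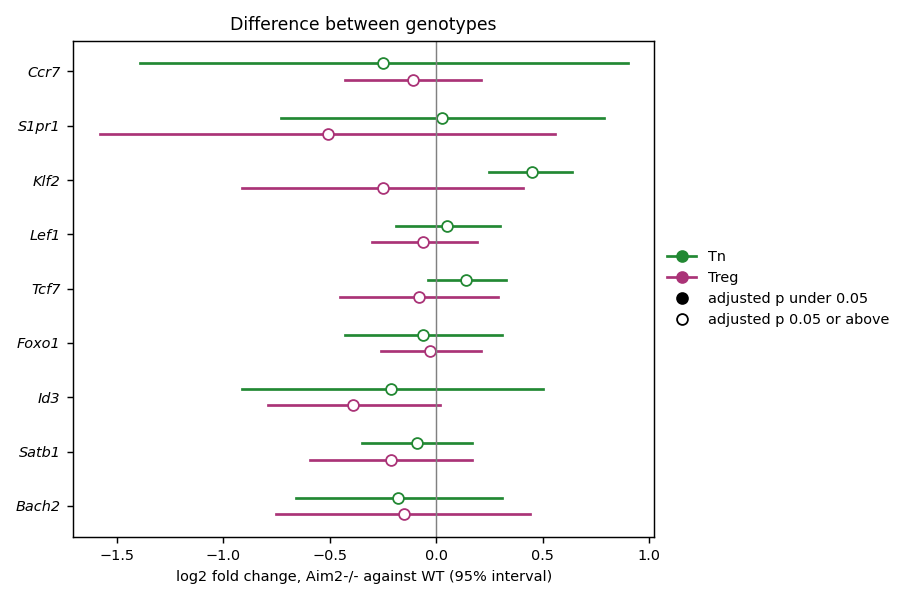
Difference between genotypes for each of the 9 genes, as log2 fold change of Aim2-/- against WT cells (horizontal axis) with its 95% interval (lines), in Tn and in Treg cells, 4 against 4 libraries each. All points are open (edgeR adjusted p of 0.05 or above), the interval of Klf2 in Tn cells, 0.25 to 0.64, lies above 0, and the interval of Ccr7 in Tn cells, -1.39 to 0.90, is among the widest.

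For Ccr7 and S1pr1 the spread within WT Tn cells set how much could be seen. The mean level of Ccr7 in WT Tn was 1468 CPM in libraries 1 and 2 and 411 CPM in libraries 3 and 4, 3.58 times apart, and that of S1pr1 was 919 and 381 CPM, 2.41 times apart. The Aim2-/- Tn libraries lay between these pairs for both genes. The pooled log2 fold change of Ccr7 was -0.25 (SE 0.49, 95% interval -1.39 to 0.90, edgeR adjusted p = 0.88), but it was -0.70 (edgeR adjusted p = 0.22) within libraries 1 and 2 and 0.72 (edgeR adjusted p = 0.012) within libraries 3 and 4. That of S1pr1 was -0.31 (edgeR adjusted p = 0.39) and 0.61 (edgeR adjusted p = 0.021). The pairs were split after this spread was known, and the opposite signs follow from where the Aim2-/- libraries lie, so they are a description and no separate test.

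The same split ran through other members. Foxo1 was 1.51 times, Bach2 1.44 times, Satb1 1.29 times and Lef1 1.24 times as high in WT Tn libraries 1 and 2 as in 3 and 4, with no overlap. Tcf7 was 1.075 times as high in libraries 1 and 2, also with no overlap. Id3 went the other way and was 2.28 times as high in libraries 3 and 4, as was the KLF2 relative Klf3 (1.49 times), which was picked after its values were seen. Klf2 differed by only 1.02 times and its ranges overlapped. In Aim2-/- Tn cells the same pairs differed by at most 1.32 times for 8 of the 9 genes and by 1.51 times for Bach2. In Aim2-/- Treg cells 8 of the 9 genes, all but Id3, were higher in libraries 1 and 2 with no overlap, by 2.81 times for S1pr1, 1.82 times for Bach2 and 1.73 times for Klf2. The share of all genes without overlap between these pairs was not counted, so the lack of overlap is a description only. Of all genes tested, 8.70% in WT Tn and 6.23% in Aim2-/- Treg lay at least 2-fold apart between the pairs. The split is by replicate number alone, and its cause was not tested. Fits with a covariate for the split, and fits within each pair, are given among the settings at the end.

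In Treg cells all 9 log2 fold changes between genotypes were below 0, from -0.03 for Foxo1 to -0.51 for S1pr1 (SE 0.47, 95% interval -1.58 to 0.56), and the groups overlapped for each of them (2.33% of all genes had groups that did not). Id3 had the smallest unadjusted p in the edgeR fit, 0.059, at a log2 fold change of -0.39 (95% interval -0.79 to 0.02). The 9 genes tended to be high or low in the same Treg libraries. In Aim2-/- Treg, library 1 was the highest of the 4 for all 9 genes (28.6% of all genes) and library 4 the lowest for 7 (27.8%). In WT Treg, library 1 was the highest for 8 (27.2%) and library 4 the lowest for 8 (31.4%). The 9 differences are therefore not separate observations, and within libraries 1 and 2 those of Klf2, Lef1, Tcf7 and Foxo1 were above 0, at 0.02 to 0.04.

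Markers of T cell states also differed between these Treg libraries. Foxp3 was at 568, 574, 499.9 and 282 CPM in WT Treg libraries 1 to 4 and at 567, 529.8, 334 and 293 CPM in Aim2-/- Treg. Tbx21, the T-bet gene of Th1 cells, was at 14.9, 49.8, 18.9 and 129 CPM in WT, against 19.5, 76.3, 136 and 139.6 CPM in Aim2-/- Treg. The WT Treg library 4 and the Aim2-/- Treg libraries 3 and 4 were the lowest of their groups in Foxp3 and the highest in Tbx21, but the WT Treg library 2 had the highest Foxp3 and the second highest Tbx21 of its group. Both genes were picked after their values were seen. The summed level of 8 effector, memory and NK cell markers ran from 34.4 to 183 CPM in WT and from 45.8 to 186 CPM in Aim2-/- Treg, with Ncr1 at 0 in all of them, and its part in the levels of the 9 genes was not tested. Tbx21 made up much of this sum, and the list did not move as one. Nkg7 was, like Tbx21, highest in the WT Treg library 4 and in the Aim2-/- Treg libraries 3 and 4. It was at 16.5, 21.1, 10.8 and 42.4 CPM in WT and at 16.1, 25.5, 39.0 and 35.6 CPM in Aim2-/- Treg libraries 1 to 4. Eomes was highest in the WT Treg library 4 (6.17 CPM) and the Aim2-/- Treg library 3 (5.47 CPM). Other members of the list went otherwise. S100a4 was at 0.992, 0.377, 0.639 and 0 CPM in WT and at 1.26, 0.364, 0.0684 and 0.189 CPM in Aim2-/- Treg libraries 1 to 4, with library 1 the highest in both. Cxcr3 was at 2.59 to 5 CPM in WT and 5.30 to 7.32 CPM in Aim2-/- Treg. Every Aim2-/- Treg library thus lay above every WT one for Cxcr3, as was true of 1.38% of all genes tested. None of the 5 tested genes of this list was called by edgeR between genotypes in Treg cells.

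The change with culture did not pass a test of difference between genotypes for any member. As an interaction term over all 16 libraries, 0 of the 9 genes and 0.0205% of 14669 genes were called by edgeR, with 1 of the 9 and 3.49% of all genes at an unadjusted p under 0.05. That gene was again Klf2, whose fall with culture was 0.69 log2 units larger in Aim2-/- than in WT cells (95% interval of the term -1.35 to -0.02, unadjusted p = 0.044 and edgeR adjusted p = 1 in the edgeR fit). The interval of S1pr1 was -1.87 to 0.80 and that of Ccr7 -0.98 to 1.27, so that differences of more than 1 log2 unit could have gone undetected in both receptors. For Lef1 the interval was -0.43 to 0.23 and for Foxo1 -0.39 to 0.48.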

How the data were processed

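RNA was measured in 16 libraries, 4 in each of 4 groups (WT Tn, Aim2-/- Tn, WT Treg, Aim2-/- Treg), grouped by their deposited titles. The authors made stranded mRNA libraries, aligned 51-nt single-end reads with STAR (GRCm38) and estimated gene counts with RSEM on GENCODE m15. The versions of both tools are not given in the sources used here. The deposited values are expected counts, 1 table per library, neither normalized nor filtered. They were rounded to whole numbers here. A read shared between genes is divided by RSEM, so that counts of genes with alike copies are estimates. Annotation came from GENCODE M21, in which 98.9% of the rows had an entry. The 9 genes, and the lists beside them, were chosen with earlier results of these data known.

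A gene was tested where 4 or more libraries of a comparison held 10 counts or more, by edgeR 4.0.16 (two-sided quasi-likelihood F test, robust fit, TMM), with Benjamini-Hochberg adjustment over all genes tested and a threshold of 0.05. Treg was compared with Tn cells within each genotype and genotypes within each state (8 libraries each), and an interaction term was tested over all 16. Totals were 22516424 to 34533316 counts, so that 3 counts per library, taken as a floor, stood for 0.0869 to 0.133 CPM before TMM factors. Without molecular identifiers on the reads, floors speak of counting error alone. Log2 CPM for profile distances had a prior count of 2, and genes of at least 5 CPM on average were searched. Alternatives were DESeq2 1.42.0, limma 3.58.1 (voom), RLE size factors, other filters, a replicate block, a covariate for replicates 1 and 2 against 3 and 4, a GC and length correction (splines of 5 degrees of freedom, with GC and length known for 99.1% of the genes tested in Tn), 1 fit of all libraries and leaving out each library. Fits within replicates 1 and 2 and within 3 and 4 were added after the data were seen. Scripts were tested on simulated data. No 2 libraries of a group were alike within sampling noise. All members were named, with the called genes of largest change in each direction per list in WT (up to 2 each way), and in the genotype comparisons the listed gene of smallest p. A comparison of protein sequences was not run. Some genes that these rules name are not reported here.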

Additional observations from a re-analysis of the deposited data

How the results depend on the processing

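The fall of 7 of the 9 genes with culture (Ccr7, S1pr1, Klf2, Lef1, Tcf7, Foxo1 and Satb1) kept its direction and its call in both genotypes under every setting and left-out library, and that of Id3 did so in Aim2-/- cells. In WT cells Id3 was also not called without a filter on low counts (log2 fold change -0.85, edgeR adjusted p = 0.059). Bach2 turned sign with culture under the GC and length correction (-0.02 in WT and -0.04 in Aim2-/- cells, and -0.02 and -0.07 with the replicate block), within replicates 3 and 4 of Aim2-/- cells (-0.04), and with 1 library left out (-0.03 to 0.29 in WT and 0.00 to 0.36 in Aim2-/- cells). The causes of these and the following shifts were not tested.

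The number of genes called between genotypes was small and moved with the setting. In Tn cells 31 were called by edgeR, against 127 by DESeq2, 47 with no filter, 18 with at least 10 counts in every library, 51 with the covariate for replicates 1 and 2 against 3 and 4, 50 in a fit of all 16 libraries, 15 within replicates 1 and 2 and 516 within replicates 3 and 4. With 1 library left out it was 17 to 28, lowest without the Aim2-/- Tn library 4 and at 18 or 19 without the WT Tn library 1 or the Aim2-/- Tn library 2 or 3. The number of members called in Tn cells went from 0 to 1 with DESeq2 and to 2 within replicates 3 and 4. In Treg cells 29 genes were called, against 52 by DESeq2, 17 with at least 10 counts in every library, 15 within replicates 1 and 2 and 4 within replicates 3 and 4, and 10 to 17 with any 1 of the 8 libraries left out. For the interaction the 3 genes called became 10 by DESeq2, 0 with at least 10 counts in every library (edgeR), and 2 to 5 with 1 library left out, 5 without the Aim2-/- Tn library 1.

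Values between genotypes near 0 turned sign as follows. In Tn cells they did so for Ccr7 with the covariate (0.01) and within replicates 3 and 4 (0.72), for S1pr1 with the GC and length correction (-0.03) and within replicates 1 and 2 (-0.31), for Foxo1 with that correction (0.02, and 0.04 with the replicate block) and within replicates 3 and 4 (0.11), for Satb1 likewise (0.08, 0.09 and 0.01), and within replicates 1 and 2 for Lef1 (-0.05) and Id3 (0.32). In Treg cells they did so for Foxo1 with the correction (0.02 with and without the block) and within replicates 1 and 2 for Klf2 (0.04), Lef1 (0.02), Tcf7 (0.04) and Foxo1 (0.04). In the interaction they did so for Ccr7 with limma-voom (-0.10), the replicate block (-0.01), the covariate (-0.03) and within replicates 3 and 4 (-0.95), for Bach2 with the correction (-0.01, and -0.03 with the block) and within replicates 3 and 4 (-0.13), for Foxo1 with the correction and the block (-0.01) and within replicates 3 and 4 (-0.21), for Id3 within replicates 3 and 4 (0.12), and within replicates 1 and 2 for S1pr1 (0.14), Lef1 (0.08) and Satb1 (0.10). With 1 library left out, the values that turned sign ranged as follows. In Tn cells this was -0.50 to 0.11 for Ccr7, -0.17 to 0.26 for S1pr1, -0.17 to 0.07 for Foxo1, -0.02 to 0.14 for Lef1 and -0.39 to 0.06 for Id3. In Treg cells this was -0.09 to 0.04 for Foxo1, -0.16 to 0.02 for Lef1 and -0.34 to 0.00 for Bach2. In the interaction this was -0.22 to 0.41 for Ccr7, -0.09 to 0.16 for Foxo1, -0.43 to 0.01 for Id3, -0.25 to 0.01 for Satb1 and -0.15 to 0.20 for Bach2.

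The replicate numbers were not taken to pair the libraries. Same-numbered libraries deviated from their group means with correlations of 0.03 to 0.35 between genotypes in Tn, -0.02 to 0.49 in Treg, and -0.04 to 0.15 (WT) and -0.04 to 0.09 (Aim2-/-) between states. Under a replicate block the number of members called was unchanged (8, 8, 0, 0 and 0), and it called over all genes 10352 and 10859 genes between states in WT and Aim2-/- cells, 29 and 41 between genotypes in Tn and Treg cells, and 2 in the interaction. Under that block the log2 fold changes between genotypes in Treg cells were -0.40 for Id3 (edgeR adjusted p = 0.32), -0.22 for Satb1 (0.51), -0.61 for S1pr1 (0.60) and -0.19 for Bach2 (0.59). A covariate for replicates 1 and 2 against 3 and 4 stands for no batch that the labels name. Id3 had the fewest counts of the 9 genes, and no setting varied the depth.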
